A study of Mus musculus with 8 samples.

Results

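Nodal pathway genes were followed in mouse embryoid bodies at day 9, as the 7 genes Nodal, Tdgf1, Cer1, Lefty1, Lefty2, Gdf3 and Foxh1. They were chosen by gene name in the deposited fragment table. The names fall on 6 of the 52281 named loci, since Lefty1 and Lefty2 share 1 locus and have identical values in it. Embryoid bodies are aggregates in which embryonic stem cells, here on a C57BL/6 background, differentiate into derivatives of the germ layers. The RNA-seq libraries number 8, with 2 in each of 4 groups. The groups are a Prdm16 knockout (genotype PRDM16 KO), the wild-type libraries labelled as its control, a knockout of the PR domain (genotype PR domain KO, named for exon 4), and a separate wild-type set labelled as the control of that knockout. Prdm16 encodes a zinc finger transcription factor with an N-terminal PR domain, and the wild-type profiles were meant for comparison with each knockout to find genes related to the factor or to the domain. No clone or culture is named for any library, so knockout and clone cannot be told apart. The p-values cover the spread between libraries of a group, which may be technical.

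Nodal is a secreted ligand of the TGF-beta family that keeps epiblast cells pluripotent and then induces mesoderm and endoderm in the primitive streak. It binds activin receptors together with an EGF-CFC co-receptor such as the Tdgf1 product (Cripto), and the signal passes through Smad2 and Smad3 with Smad4 to DNA-binding partners such as Foxh1. Nodal, Lefty1, Lefty2 and Cer1 are known targets of the pathway, and the last 3 encode secreted antagonists that limit its range.

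Levels below are normalised fragments, which are fragments per locus that the authors divided by a size factor for each library. The libraries held 6273789 to 9086885 fragments on named loci. Prdm16 itself had 23 and 28 fragments in the Prdm16 control and 9 and 1 in its knockout. It had 44 and 22 in the PR domain control and 26 and 19 in the PR domain knockout, and fragments of the whole gene do not test the loss of an exon. Fold changes were taken on log2(value + 1), so those of low genes are understated. They come with the SE and the Benjamini-Hochberg adjusted p of limma over 16623 tested loci, and an adjusted p below 0.05 is a call. In bulk libraries, fewer cells of a type and less RNA per cell cannot be told apart.

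Promoters are shown because Foxh1 and Smad proteins are known to bind DNA at Nodal targets. Those of Nodal, Tdgf1 and Cer1 are given, the only members found in the RefSeq promoter table (GRCm38.p6). Each line gives the 250 bases before the annotated start, 5′ to 3′ on the strand of the gene. Capitals mark matches, on either strand, to the Foxh1 motif AATNNACA or to the Smad box CAGAC, which do not overlap here. The stretches are chr10:61417722-61417971 (plus strand), chr9:110946159-110946408 (minus strand) and chr4:82885152-82885401 (minus strand).
Nodal: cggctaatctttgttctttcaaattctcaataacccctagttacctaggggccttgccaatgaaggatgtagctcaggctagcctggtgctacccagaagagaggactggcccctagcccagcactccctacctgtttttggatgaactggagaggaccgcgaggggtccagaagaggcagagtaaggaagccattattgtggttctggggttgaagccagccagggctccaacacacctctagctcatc
Tdgf1: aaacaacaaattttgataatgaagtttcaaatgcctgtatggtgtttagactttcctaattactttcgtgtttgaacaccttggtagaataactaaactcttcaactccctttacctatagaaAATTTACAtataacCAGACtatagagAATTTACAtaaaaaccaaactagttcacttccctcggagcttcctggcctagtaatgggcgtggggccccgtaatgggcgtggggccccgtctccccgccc
Cer1: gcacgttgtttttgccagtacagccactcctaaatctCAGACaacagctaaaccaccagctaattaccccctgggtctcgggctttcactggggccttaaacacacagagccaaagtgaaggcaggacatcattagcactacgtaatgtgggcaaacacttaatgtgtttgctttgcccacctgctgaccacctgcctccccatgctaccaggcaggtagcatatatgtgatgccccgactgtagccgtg
The Tdgf1 promoter held 2 matches to AATNNACA, which begin at -127 and -101 from the gene start, and a CAGAC box between them at -113. The Cer1 promoter held a CAGAC box at -213. The Nodal promoter held none of these. Only the promoters were searched, so matches elsewhere in or near the 3 genes are not covered. Among 32851 RefSeq promoters of 300 bases (250 before to 50 after the start), 12.2% held AATNNACA and 49.6% held CAGAC. With only A or C allowed at each N, as in the narrower Foxh1 consensus, 4.40% of promoters matched and none of the 3 members did. The Smad palindrome GTCTAGAC was in 0.213% of promoters and in none of these.

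In the Prdm16 knockout, 5 of the 6 loci fell against the control set and 0 rose. These were Nodal, Tdgf1, Foxh1, the joint Lefty1 and Lefty2 locus and Cer1. Gdf3 did not pass. The median log2 fold change of the 6 loci was -1.13, against -0.03 over all tested loci, of which 21.1% were called lower, 18.0% higher and 39.1% in either direction. In the PR domain knockout 2 of the 6 loci fell, Tdgf1 and Foxh1, and 0 rose, where 10.7% of tested loci were called lower, 8.48% higher and 19.2% in either direction. The median of the 6 was -0.26, against -0.03 over all loci. The wild-type sets themselves differed at 5 of the 6 loci, all lower in the PR domain control, where 16.7% of loci were called lower, 16.3% higher and 33.0% in either direction. The median there was -2.65 over the 6 loci and 0.00 over all tested loci. All 6 loci passed the filter of at least 10 normalised fragments in at least 2 libraries. Cer1 passed through the Prdm16 control alone and so had to differ from the other groups. Without it, 4 of 5 loci fell in the Prdm16 knockout, 4 of 5 were lower in the PR domain control, and the counts with Cer1 are a description. Leaving Cer1 aside, the effects of the knockouts differed for the Lefty locus and for Tdgf1, where 7.81% of tested loci were called lower, 8.60% higher and 16.4% in either direction. The effect of the Prdm16 knockout was the more negative for the Lefty locus and the less negative for Tdgf1. For the Lefty locus this call was lost under 11 of 20 alternatives. The PR domain control held 23 fragments of that locus, which limits the fall that could be seen there.

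**Figure D1:**
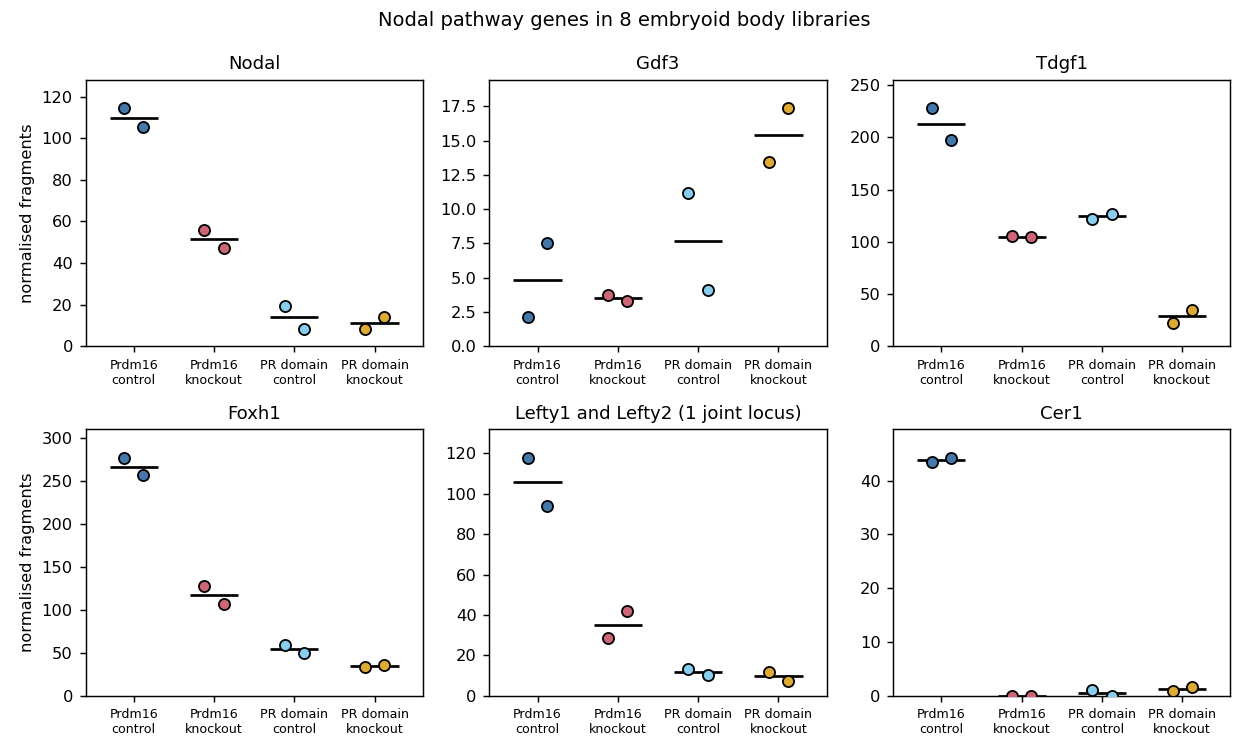
Normalised fragments of the 6 loci in each of 8 libraries, with 1 point per library, a line at the mean of each group of 2 and a vertical axis from 0 that differs between panels. All loci but Gdf3 are highest in the Prdm16 control. Tdgf1 is the one that stays high in the PR domain control, with 121.7 and 126.9.

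Nodal (ENSMUSG00000037171.6, chromosome 10, 61417972 to 61425338, plus strand, GRCm38) was at 114.5 and 105.3 normalised fragments in the Prdm16 control and 55.8 and 47.3 in its knockout. It had 19.3 and 8.26 in the PR domain control and 8.07 and 14.1 in the PR domain knockout. The Prdm16 pair of groups did not overlap and lay above every PR domain library, while the PR domain groups overlapped each other. Nodal fell in the Prdm16 knockout by 1.08 ± 0.32 on the log2 scale (limma adjusted p = 0.00756). The call was lost without Prdm16 control replicate 1 (adjusted p = 0.0757), without Prdm16 knockout replicate 2 (adjusted p = 0.0580) and with no filter on low values (adjusted p = 0.0717), at log2 fold changes of -1.02, -0.96 and -1.08. It held on log2(FPKM + 1), at -0.89 (adjusted p = 0.0369). By fragments, 88 against 220, the knockout held 45.6% of the control (95% exact interval 35.2 to 58.6%, counting error only). Nodal did not pass in the PR domain knockout, at -0.23 ± 0.32 (limma adjusted p = 0.699), from 26 fragments against 27, or 82.3% of control (46.2 to 147%). Its sign turned when replicate 1 of the PR domain control (0.34) or of the PR domain knockout (0.14) was left out. A change of Nodal within that interval was not detectable at this depth. The wild-type sets differed, with 27 fragments against 220 (-3.02 ± 0.32, limma adjusted p = 6.89e-09).

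Gdf3 (chromosome 6, 122605403 to 122610087, minus strand) encodes a Nodal-related ligand that also needs the co-receptor. It was low in every group, with 2 and 8 fragments in the Prdm16 control, 3 and 3 in its knockout, 11 and 4 in the PR domain control and 15 and 21 in the PR domain knockout. The PR domain knockout libraries lay above all 6 others, and the Prdm16 control overlapped both its knockout and the PR domain control. Gdf3 passed in none of the 4 comparisons. Its log2 fold change against the control was -0.19 ± 0.57 for the Prdm16 knockout (limma adjusted p = 0.818) and 1.05 ± 0.57 for the PR domain knockout (limma adjusted p = 0.224). By fragments the PR domain knockout held 205% of its control (95% exact interval 110 to 403%), an interval that covers counting error and not the spread between the libraries. The share was 380% when PR domain control replicate 1 was left out and 142% when replicate 2 of that control was.

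Tdgf1 (ENSMUSG00000032494.12, chromosome 9, 110939603 to 110946158, minus strand), the co-receptor gene, was at 227.9 and 197.5 normalised fragments in the Prdm16 control and 105.5 and 104.5 in the Prdm16 knockout. It had 121.7 and 126.9 in the PR domain control and 22.4 and 34.7 in the PR domain knockout. No groups overlapped, and the PR domain control lay just above the Prdm16 knockout. Tdgf1 fell in both knockouts, by 1.01 ± 0.18 on the log2 scale without Prdm16 (limma adjusted p = 2.75e-05), and it fell by 2.11 ± 0.18 without the PR domain (limma adjusted p = 1.04e-10). The knockouts held 48.3% (180 against 425 fragments, 95% exact interval 40.3 to 57.6%) and 23.6% (67 against 243 fragments, 17.7 to 31.0%) of their controls. The fall was larger in the PR domain knockout, with a difference of 1.11 ± 0.25 between the effects (limma adjusted p = 0.00191). That difference did not pass on log2(FPKM + 1), at 0.78 (adjusted p = 0.185). The wild-type sets differed by -0.77 ± 0.18 (limma adjusted p = 0.000917), the smallest gap between them among the 5 loci called.

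A processed pseudogene, Tdgf1-ps1 (chromosome 16, 3730510 to 3731022), is 98.8% identical to the Tdgf1 transcript over 512 aligned bases, with a longest shared run of 154 bases, so fragments could be assigned to either. It had 76 fragments over the Prdm16 control libraries, 33 over the Prdm16 knockout, 40 over the PR domain control and 10 over the PR domain knockout. It also fell in both knockouts, with log2 fold changes of -0.94 ± 0.37 (limma adjusted p = 0.0429) and -2.10 ± 0.37 (limma adjusted p = 7.10e-05). The split of fragments between the gene and its copy is therefore uncertain. The other copy, Tdgf1-ps2, had 1 fragment over all 8 libraries.

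Foxh1 (ENSMUSG00000033837.5, chromosome 15, 76668225 to 76669948, minus strand), the forkhead partner of activated Smads, was at 276.7 and 256.8 normalised fragments in the Prdm16 control and 127.8 and 106.7 in the Prdm16 knockout. It had 58.8 and 49.5 in the PR domain control and 33.2 and 35.6 in the PR domain knockout. The groups formed 4 steps with no overlap. Foxh1 fell in the Prdm16 knockout by 1.18 ± 0.17 on the log2 scale (limma adjusted p = 1.16e-06), to 42.7% of control (200 against 534 fragments, 95% exact interval 36.1 to 50.3%). It also fell in the PR domain knockout, by 0.64 ± 0.17 (limma adjusted p = 0.00581), to 64.5% (80 against 106 fragments, 47.7 to 87.1%). This second call did not pass on log2(FPKM + 1), in DESeq2, in limma-voom, with only the PR domain groups in the fit or without PR domain control replicate 1, at adjusted p between 0.0556 and 0.145. The effects of the knockouts differed by -0.55 ± 0.24, which did not pass (limma adjusted p = 0.116). The wild-type sets differed by -2.28 ± 0.17 (limma adjusted p = 1.96e-12).

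Foxh1 ends 28 bases from the end of Kifc2, a kinesin gene on the opposite strand, and no source used here gives the strand setting of the counting. Fragments at their ends cannot be told apart. Kifc2 had log2 fold changes of -0.03 ± 0.20 with the Prdm16 knockout and 0.03 ± 0.20 with the other knockout, neither of which passed (limma adjusted p = 0.930 and 0.940). Between the wild-type sets Kifc2 was lower in the PR domain control, by -1.09 ± 0.20 (limma adjusted p = 8.50e-05), in the same direction as Foxh1.

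Lefty1 and Lefty2 lie on the plus strand of chromosome 1, at 180935022 to 180938400 and 180893108 to 180899103. They encode secreted TGF-beta family proteins that block Nodal and its co-receptor. Their longest transcripts share 91.5% identical bases over 1155 aligned bases, with a longest shared run of 140 bases, and the table gives them 1 value, which belongs to neither gene alone. The joint locus was at 117.7 and 94.1 normalised fragments in the Prdm16 control and 28.5 and 41.8 in the Prdm16 knockout. It had 13.2 and 10.3 in the PR domain control and 11.7 and 7.45 in the PR domain knockout. As for Nodal, the Prdm16 groups did not overlap and the PR domain groups did. The locus fell in the Prdm16 knockout by 1.58 ± 0.31 on the log2 scale (limma adjusted p = 0.000132), to 32.9% of control (61 against 211 fragments, 95% exact interval 24.4 to 44.0%). Its change of -0.29 ± 0.31 in the PR domain knockout did not pass (limma adjusted p = 0.586), from 22 fragments against 23. The difference between the effects, -1.29 ± 0.44, just passed (limma adjusted p = 0.0414) and was lost under 11 of 20 alternatives, including edgeR (adjusted p = 0.0893) and DESeq2 (adjusted p = 0.247). The wild-type sets differed by -3.07 ± 0.31 (limma adjusted p = 2.44e-09).

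Cer1 (ENSMUSG00000038192.5, chromosome 4, 82881751 to 82885148, minus strand), which encodes the secreted antagonist Cerberus, was above 3 fragments in the Prdm16 control alone. It had 41 and 47 fragments in the Prdm16 control, 0 and 0 in its knockout, 1 and 0 in the PR domain control, and 1 and 2 in the PR domain knockout. With 3 fragments over the group taken as the limit of a count of 0, Cer1 was at least 25.7-fold lower in the Prdm16 knockout than in the control. The PR domain control held 1.16% of the Prdm16 control by fragments (95% exact interval 0.0290 to 6.62%). No p is given for Cer1, since it entered the test only through the group where it is high. Both PR domain groups were at or under 3 fragments, so no fold is given for them, and a change of Cer1 was not detectable in that knockout.

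**Figure D2:**
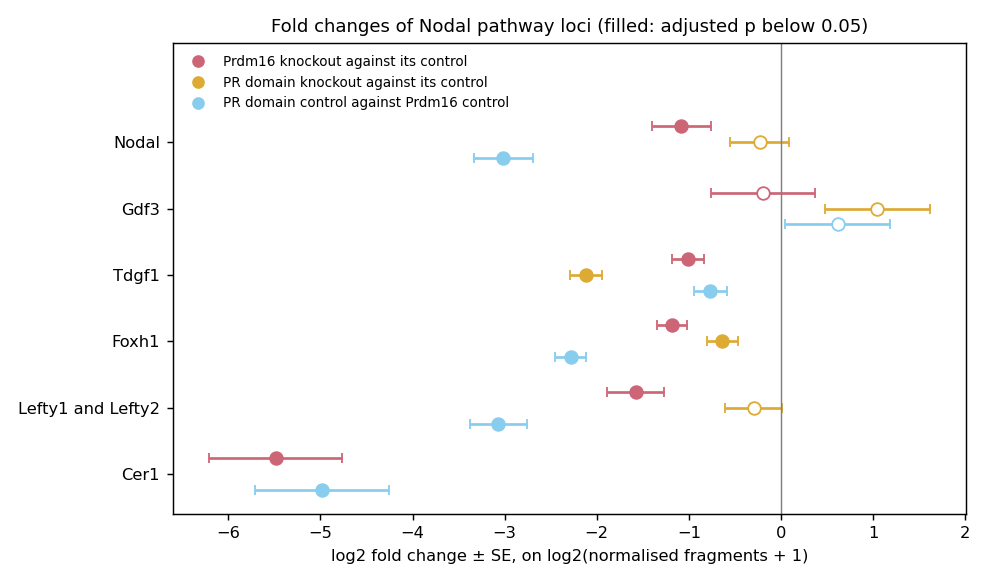
Log2 fold change ± SE (limma, horizontal axis) of the 6 loci in 3 comparisons. Filled points have an adjusted p below 0.05, and Cer1 is left out of the PR domain comparison, where both groups were at or under 3 fragments. Cer1 is drawn filled in the other comparisons, but it passed the filter through the Prdm16 control alone. Its points are a description and not a test. Apart from Gdf3, the Prdm16 knockout points lie at -1.01 or below. For the wild-type sets they lie at -0.77 or below, Gdf3 again apart.

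The controls of the knockouts share no library, but the direction in the Prdm16 knockout rests on its control set. Set against the PR domain control instead, which is a comparison across sets chosen after seeing the data, Nodal, Foxh1 and the Lefty locus were higher in the Prdm16 knockout, at 1.94, 1.10 and 1.49 on the log2 scale (limma adjusted p = 1.06e-05, 2.88e-06 and 0.000232). Tdgf1 was at -0.24 and did not pass (limma adjusted p = 0.291). The PR domain knockout against the Prdm16 control gave -3.25 for Nodal, -3.36 for the Lefty locus and 1.66 for Gdf3. Gdf3 passed the filter only with the PR domain knockout libraries, at 13.5 and 17.4 normalised fragments. Its value across sets is therefore a description and not a test. As shares of the Prdm16 control mean, Nodal stood at 46.9% in the Prdm16 knockout, 12.5% in the PR domain control and 10.1% in the PR domain knockout. Foxh1 stood at 44.0, 20.3 and 12.9%, and the Lefty locus at 33.2, 11.1 and 9.02%. Tdgf1 had another order, with 49.4, 58.4 and 13.4%.

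Levels of different genes were compared only per length, in FPKM as deposited. In the Prdm16 control Foxh1 was highest at 26.3 ± 0.24 FPKM (SD, n = 2), followed by Tdgf1 at 15.8 ± 1.20, the Lefty locus at 7.10 ± 1.11, Nodal at 6.35 ± 0.37, Cer1 at 3.12 ± 0.04 and Gdf3 at 0.274 ± 0.217. The Lefty locus and Nodal overlapped there, and the other neighbours in this order did not. Tdgf1 was highest in the PR domain control, at 9.23 ± 0.07, followed by Foxh1 at 3.58 ± 0.60. The Lefty locus, at 1.05 ± 0.23, and Nodal, at 0.796 ± 0.450, overlapped again. Foxh1 (2.34 ± 0.14) and Tdgf1 (2.19 ± 0.67) overlapped in the PR domain knockout, where no member was above 2.66 FPKM in a library.

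Across the 8 libraries Nodal, Foxh1 and the Lefty locus followed each other most closely, with Pearson r of 0.967 for Nodal and Foxh1, 0.970 for Foxh1 and the Lefty locus, and 0.941 for Nodal and the Lefty locus, on log2(value + 1). Tdgf1 had r of 0.720 with Nodal, and Gdf3 had -0.582. These 8 points are 4 groups of 2 and share library depth and scaling, so the values describe the group pattern only. Among 2520 single protein-coding loci whose group means ranged over at least 1 on the log2 scale, those most like Foxh1 were Cfc1 (r = 0.993), the other EGF-CFC co-receptor gene, Camsap3 (0.993) and Slc1a4 (0.987). Cfc1 itself was at 82.7 and 89.3 normalised fragments in the Prdm16 control, 36.0 and 30.8 in its knockout, 13.2 and 15.5 in the PR domain control and 8.07 and 9.93 in the PR domain knockout. The loci most like Nodal were Slc27a2 (r = 0.989), Cnpy1 (0.985) and Hoxa9 (0.984), and those most like the Lefty locus were Ide (0.989), Lhfpl4 (0.980) and Nr6a1 (0.980). Tdgf1 was most like Id3 (0.986), a target of BMP signalling, Dock5 (0.974) and Scn8a (0.974). Cer1 was most like Wnt1 (0.986), Lemd1 (0.966) and Sall3 (0.965), and Gdf3 was most like Fcna (0.909), Itgax (0.893) and Alb (0.890).

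Of 36 other genes of the Nodal and Activin pathway, 34 were tested. In the Prdm16 knockout 12 fell and 5 rose, with a median log2 fold change of -0.15, where all tested loci had 21.1% lower and 18.0% higher calls. Without the PR domain 9 fell and 4 rose, with a median of -0.12, against 10.7% and 8.48% of all loci. Between the wild-type sets 12 were lower in the PR domain control and 4 higher, against 16.7% and 16.3% of all loci. Of the 4 tested ligand and processing genes, 1 fell and 1 rose in the Prdm16 knockout, and 1 fell in the PR domain knockout. The ligand gene Gdf1, on a joint locus with Cers1, passed in neither, at -0.32 ± 0.33 and -0.83 ± 0.33 (limma adjusted p = 0.474 and 0.0799). Pcsk6, a convertase that cleaves the Nodal precursor, shares its locus with Snrpa1 and Gm45213, and the value belongs to none of them alone. That joint locus fell in both knockouts, with log2 fold changes of -0.27 ± 0.07 and -0.20 ± 0.07 (limma adjusted p = 0.00285 and 0.0471). Furin, a second convertase gene, rose by 0.14 ± 0.05 in the Prdm16 knockout (limma adjusted p = 0.0319). The ligand gene Inhbb and the receptor gene Acvr1c were not tested, at under 10 normalised fragments in every library.

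Of the 4 tested receptor and co-receptor genes, 3 fell in the Prdm16 knockout and 1 rose. Over all tested loci 39.1% were called in either direction in that knockout, and 19.2% in the PR domain knockout. Cfc1 fell by 1.34 ± 0.29 on the log2 scale (limma adjusted p = 0.000477), and the type II activin receptor genes Acvr2b and Acvr2a had log2 fold changes of -0.63 ± 0.07 and -0.47 ± 0.10. The type I receptor gene Acvr1b rose by 0.33 ± 0.08. Of the 4, Acvr2b alone fell in the PR domain knockout, by 0.28 ± 0.07 (limma adjusted p = 0.00437). Cfc1, at -0.62 ± 0.29, missed the threshold there (limma adjusted p = 0.151). Among the signal transducers, Smad3 and Smad4 fell in the Prdm16 knockout, at -0.36 ± 0.06 and -0.25 ± 0.06 on the log2 scale. Smad2 and Smad4 fell in the PR domain knockout, at -0.21 ± 0.06 and -0.26 ± 0.06.

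Of 8 nuclear partners and brakes, Smad7, an inhibitory Smad, rose by 0.46 ± 0.11 in the Prdm16 knockout (limma adjusted p = 0.00127). None passed in the PR domain knockout. The shares of all tested loci called in either direction were 39.1% and 19.2% in these knockouts. Extracellular and membrane inhibitors moved in both directions. Bambi, a decoy receptor gene, rose in both knockouts, by 0.88 ± 0.05 and 0.30 ± 0.05. Dact2, which lowers Nodal receptor levels, also rose in both, by 0.75 ± 0.12 and 0.86 ± 0.12. Fst, encoding the activin-binding protein follistatin, fell in both, at -0.61 ± 0.17 and -0.60 ± 0.17 (limma adjusted p = 0.00496 and 0.0120). Ltbp1, a latent TGF-beta binding protein gene, rose by 0.16 ± 0.05 in the PR domain knockout.

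Of 8 targets tested, 5 fell and 0 rose in the Prdm16 knockout, with a median of -1.92, and 4 fell and 1 rose in the PR domain knockout, with a median of -1.29, where 39.1% and 19.2% of all tested loci were called. T and Gsc, which are among those that fell without Prdm16, passed the filter through the Prdm16 control alone, so these counts are a description. Otx2, a homeobox gene of epiblast and forebrain on a joint locus with Gm49154, went from 291.6 and 277.5 normalised fragments to 50.9 and 44.0 without Prdm16, and from 72.0 and 69.1 to 17.9 and 23.2 in the PR domain knockout. Its log2 fold changes were -2.56 ± 0.19 and -1.74 ± 0.19. Lhx1, a LIM homeobox gene of the axial mesendoderm, fell in both, at -1.86 ± 0.38 and -2.72 ± 0.38. Sox17, an endoderm gene also used by endothelium, was not called without Prdm16, at 0.02 ± 0.16 (limma adjusted p = 0.947), and it fell by 0.99 ± 0.16 in the PR domain knockout. T, the Brachyury gene of the primitive streak, had 30 and 32 fragments in the Prdm16 control and 1 and 3 in its knockout. It had 2 and 3 fragments in the PR domain control and 2 and 3 in the PR domain knockout.

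**Figure D3:**
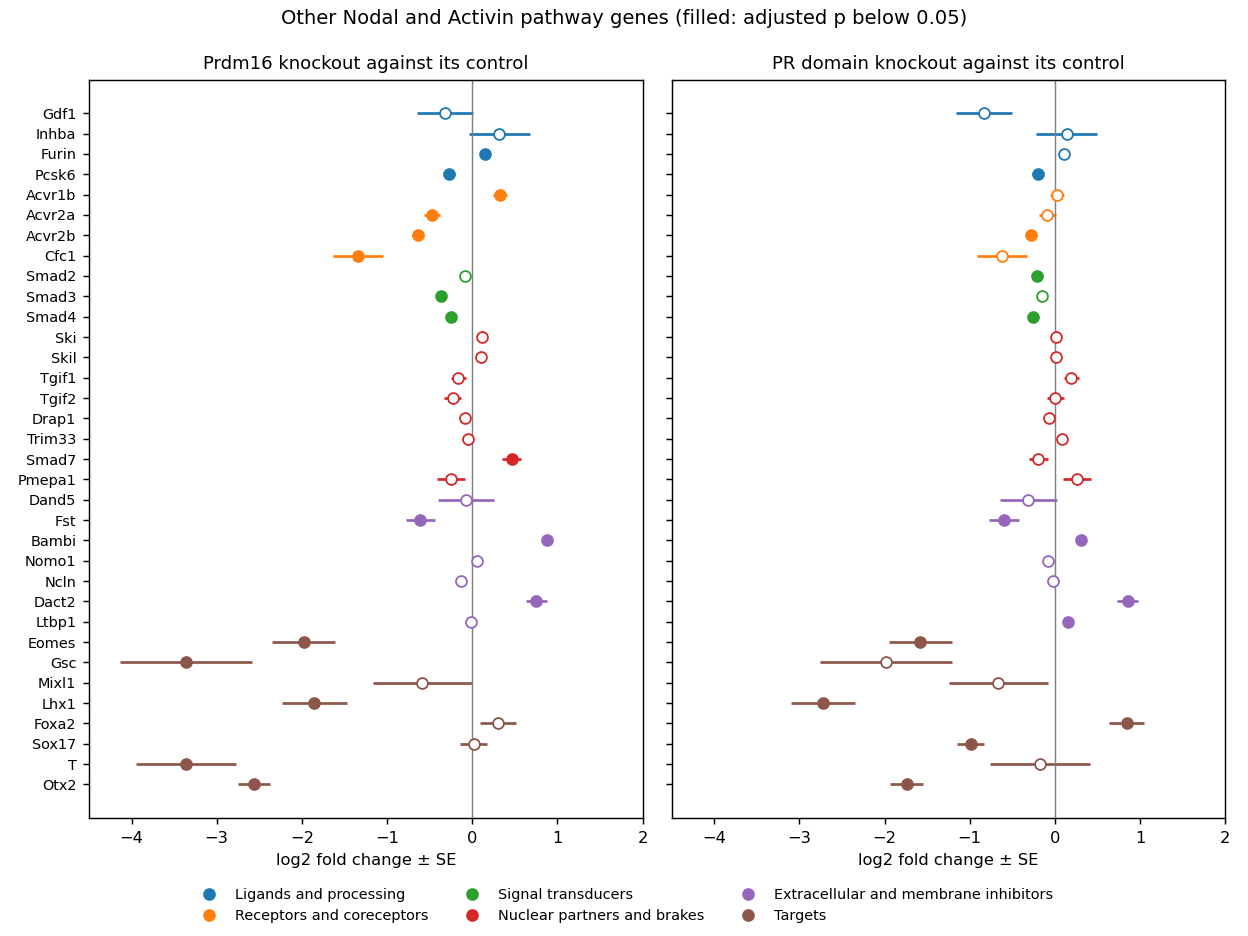
Log2 fold change ± SE (limma, horizontal axis) of 34 tested pathway genes, coloured by role, in the Prdm16 knockout (left) and the PR domain knockout (right). Filled points have an adjusted p below 0.05, and the points far below 0 in both panels include the targets Otx2 (-2.56 and -1.74) and Lhx1 (-1.86 and -2.72). T and Gsc, filled on the left, passed the filter through the Prdm16 control alone, so their points there are a description.

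Nodal pathway genes are known from pluripotent, epiblast and streak cells, so markers of these cells were read beside them. The shares to set beside these and the later marker counts are 21.1% of all tested loci called lower and 18.0% higher without Prdm16, 10.7% and 8.48% without the PR domain, and 16.7% and 16.3% between the wild-type sets. Of 10 pluripotency markers 6 were tested, and 3 fell and 2 rose in the Prdm16 knockout. Without the PR domain 2 fell and 2 rose, among them Pou5f1, which rose by 0.84 ± 0.22, and Klf4, at -0.48 ± 0.10 (limma adjusted p = 0.00493 and 0.000661). Between the wild-type sets 5 were lower in the PR domain control and 1 was higher. Pou5f1, which encodes Oct4, was measured at 272.5 and 262.4 normalised fragments in the Prdm16 control, 151.4 and 128.7 in its knockout, 9.13 and 8.26 in the PR domain control and 15.3 and 17.4 in the PR domain knockout. Nanog went from 85.9 and 83.7 to 50.9 and 57.2 in the Prdm16 knockout, which did not pass (-0.64 ± 0.33, limma adjusted p = 0.124), and had at most 9.10 in a PR domain library. The naive-state markers Dppa4, Dppa5a, Esrrb and Zfp42 stayed under 10 in all 8 libraries, and Dppa4 was at 0 in 5 of them. Klf4 and Tfcp2l1, which other cell types also express, rose in the Prdm16 knockout, Tfcp2l1 on a joint locus with Gm23497. The summed level of the list was 1332 to 1469 in the Prdm16 control, 1590 to 1619 in its knockout, 691 to 704 in the PR domain control and 718 to 725 in the PR domain knockout. Tfcp2l1 and Klf4 made up most of the sum in the Prdm16 knockout, where their means went from 538 to 998 and from 185 to 324. Sox2 (242 to 58.5) and Utf1 (72.7 to 22.0) fell there, as did Pou5f1, so the sum does not follow the list as a whole.

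Primed epiblast markers fell in 5 of 6 cases in the Prdm16 knockout and 3 of 6 in the PR domain knockout. Their summed level was 2434 to 2551 in the Prdm16 control, 1242 to 1251 in its knockout, 847 to 877 in the PR domain control and 682 to 687 in the PR domain knockout. Dnmt3b, a DNA methyltransferase gene, stood at 48.1, 13.2 and 9.59% of the Prdm16 control in the other groups in this order. Fgf5 stood at 30.5, 6.60 and 9.82%, and Otx2 at 16.7, 24.8 and 7.22%. Primitive streak markers fell in 3 of 6 cases in the Prdm16 knockout and 1 of 6 in the PR domain knockout, where 21.1% and 10.7% of all loci fell. Their summed level was 307 to 315 in the Prdm16 control, 96.8 to 104.5 in its knockout, 19.3 to 24.8 in the PR domain control and 9.10 to 17.0 in the PR domain knockout, with Gsc at 0 in 3 knockout libraries. T and Gsc passed the filter through the Prdm16 control alone. Eomes, Gsc, Mixl1 and T are also among the 8 targets above, and Otx2 is both a target and a primed epiblast marker. The part of these cells in the levels of Nodal, Foxh1 and the Lefty genes was not tested.

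Markers of other cell types were read in the same way. Visceral endoderm markers rose in 6 of 6 cases in both knockouts, with medians of 1.04 and 1.03, and all 6 were lower in the PR domain control than in the Prdm16 control. Their summed level was 34165 to 35669 in the Prdm16 control, 71609 to 72183 in its knockout, 5289 to 5532 in the PR domain control and 9791 to 9837 in the PR domain knockout. Markers of anterior visceral and definitive endoderm fell in 3 of 6 tested cases in each knockout and rose in 0 and 1, where 39.1% and 19.2% of all loci were called. Hesx1, found in anterior endoderm and forebrain, was at 0 in all 4 PR domain libraries and at 6.58 or less in the others. Of 8 germ cell markers 3 were tested and fell in the Prdm16 knockout, among them Dnd1, which passed the filter through the Prdm16 control alone. In the PR domain knockout 1 of the 3 fell, Prdm1 at -0.48 ± 0.15. Tfap2c (0.32 ± 0.51) and Dnd1 (0.35 ± 0.49) were not called there. Dppa3, Prdm14 and Dazl had at most 3.18 normalised fragments. Noto, which marks the node, was at 0 in all 8 libraries, and Dand5, a Nodal antagonist of the left-right organiser, was at 14.9 to 36.1 and passed in neither knockout.

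**Figure D4:**
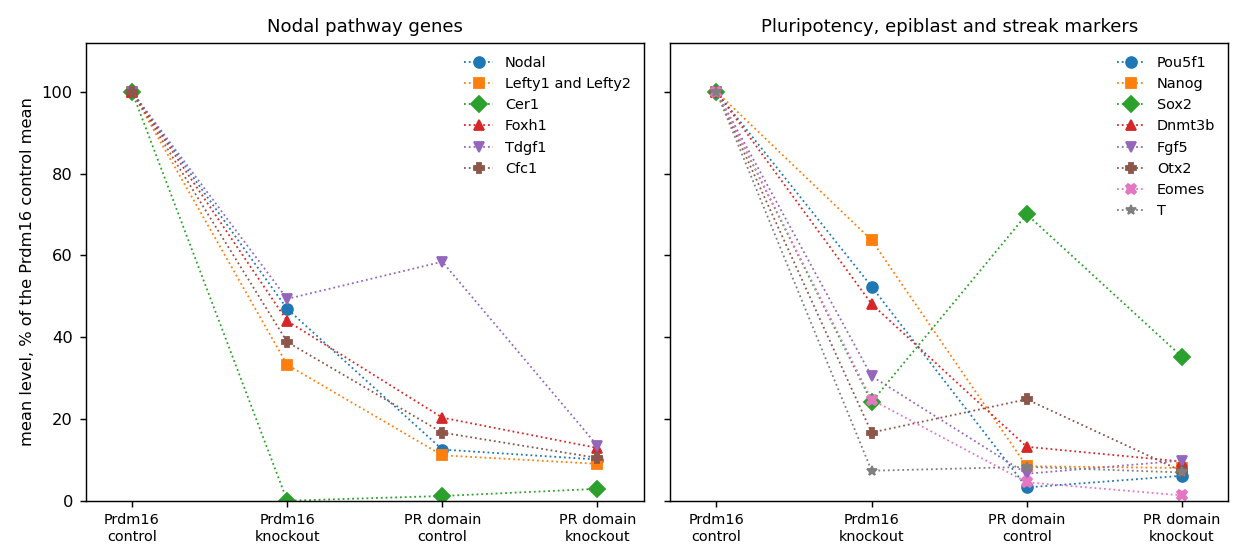
Mean level of each gene as a percentage of its mean in the Prdm16 control (vertical axis) in the 4 groups, for Nodal pathway genes (left) and for markers of pluripotent, epiblast and streak cells (right). Dotted lines only join the points of a gene. Nodal, Foxh1 and Dnmt3b stand at 46.9, 44.0 and 48.1% in the Prdm16 knockout and at 12.5, 20.3 and 13.2% in the PR domain control. Of the markers, Sox2 and Otx2 are instead higher in the PR domain control than in the Prdm16 knockout. They stand at 70.0 against 24.1% and 24.8 against 16.7%. T stands at 8.28 against 7.34%, from 5 fragments against 4, and its groups overlap, so no order is read. The other markers drawn are lower in the PR domain control.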

How the data were processed

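Total RNA of day 9 embryoid bodies was sequenced as 8 TruSeq libraries, per the labels' protocols. Groups and replicate numbers came from the sample titles. Cufflinks 2.2.1, deepTools, SAMtools 1.5 and TopHat2 2.1.1 appear in the submitters' processing notes, with the build mm10 and without roles. No source used here gives the annotation release. The values tested are a signal, namely fragments of a locus over a size factor of the library, which the authors deposited. At least 99.996% of values were whole fragments within 0.1 after division by the step of the library. The authors also deposited FPKM values, per the file headers. Loci without a gene name, 1.88 to 2.53% of fragments, were left out. Coordinates are from GENCODE M21 (GRCm38), which held 52644 of 53680 names.

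Loci with at least 10 normalised fragments in at least 2 libraries were tested with limma-trend (limma 3.58.1, R 4.3.3) on log2(value + 1), in 1 model of 4 group means with 4 residual and 25.4 prior degrees of freedom, after a check on simulated data. This was the test planned for scaled values. As alternatives, edgeR 4.0.16 and DESeq2 1.42.0 were run on the recovered fragments. Ratios of fragments use library totals and exact conditional intervals (Clopper-Pearson), and a count of 0 was set to 3 fragments over the group. The intervals cover counting error only, since fragments were summed over the libraries of a group. The labels mention no molecular identifiers. The members, pathway lists and markers were chosen with earlier results of these data known. Named genes are all members, up to 4 called genes per pathway role with the smallest adjusted p, and the 3 loci most like each member. Marker genes, Tdgf1-ps1 and Kifc2 were named after their values were seen. Alternatives were other scalings, tools, pseudocounts, filters, FPKM, a replicate block, the groups in the fit and each library left out. With limma-voom and the other control set, chosen after seeing the data, they are given in the closing section. A gene of the pathway lists is not reported here.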

Additional observations from a re-analysis of the deposited data

Results flagged for a closer look

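The effects of the knockouts, each against its own control, were compared by limma's test of the difference. It called 4 members on 3 loci and 7 of the 34 other pathway genes tested. Over all tested loci 16.4% were called in either direction, 7.81% lower and 8.60% higher. The counts include Cer1 and T, which passed the filter through the Prdm16 control alone, so they are a description. Values are the log2 effect of the Prdm16 knockout minus that of the PR domain knockout. Among members, the difference was 1.11 ± 0.25 for Tdgf1 (limma adjusted p = 0.00191), which fell further in the PR domain knockout. It was -1.29 ± 0.44 for the joint locus of Lefty1 and Lefty2 (limma adjusted p = 0.0414). That call was lost under 11 of 20 alternatives, and the PR domain control held 23 fragments of the locus. For Cer1 the fitted value was -6.15, given with no test. Cer1 passed the filter through the Prdm16 control alone and had 1 fragment in the PR domain control and 3 in the PR domain knockout, so it does not show that the knockouts differ. Among the other genes, Bambi (0.58 ± 0.07), Smad7 (0.66 ± 0.16) and Sox17 (1.01 ± 0.22) had positive differences. Acvr2b (-0.35 ± 0.10), Tgif1 (-0.36 ± 0.12), Otx2 (-0.82 ± 0.27) and T (-3.19 ± 0.83) had negative ones. T, too, passed the filter through the Prdm16 control alone, with 2.03 and 3.10 normalised fragments in the PR domain control.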

How the results depend on the processing

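The fall of Tdgf1, Foxh1 and the Lefty locus in the Prdm16 knockout kept its direction and its call under all 17 alternatives that used its own control, and that of Nodal under 14, with log2 fold changes from -1.20 to -0.89. Tdgf1 kept its call in the PR domain knockout under all 17, from -2.42 to -1.70. With the other control set, 0 Nodal pathway loci fell in the Prdm16 knockout, where Nodal, Foxh1 and the Lefty locus reversed to 1.94, 1.10 and 1.49. In the PR domain knockout 5 fell, among them Cer1, which had to differ from the Prdm16 control through which it passed the filter. These counts across sets are a description, and the shares of all loci called there are not given. On log2(FPKM + 1), 1 Nodal pathway locus fell in the PR domain knockout. The 1 locus that passed the test of the difference on that scale was Cer1, not Tdgf1. Cer1 passed the filter through the Prdm16 control alone, so that count is a description. With the DESeq2 Wald test 1 locus fell in the PR domain knockout, and the 1 that passed the difference was Tdgf1. DESeq2 gave no adjusted p for the difference at Cer1. In the PR domain knockout 1 fell, too, with limma-voom and with only the groups of the comparison, and from 1 to 2 when each library was left out. With each library left out in turn, Nodal ranged from -0.79 to 0.34 in the PR domain knockout, Gdf3 from -0.92 to 0.53 in the Prdm16 knockout and Gdf3 from -0.11 to 1.34 between the wild-type sets, none of them called. Over all loci, calls numbered 6502 without Prdm16, 3190 without the PR domain, 2728 for the difference between them and 5481 between the wild-type sets. They numbered 2244, 582, 199 and 1717 on log2(FPKM + 1), and 3983, 1797, 1179 and 3388 with DESeq2. Without a low-value filter the difference had 1642. The share of higher calls for the difference was 52.4%, 58.8% with TMM and 37.0% with total-fragment scaling. Replicate numbers were not a pairing, with correlations of deviations between -0.04 and 0.03, and a replicate block gave the same counts of Nodal pathway loci that fell, 5 without Prdm16 and 2 without the PR domain. With 26 and 27 fragments of Nodal in the PR domain groups, depth limits what can be seen there.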

Other observations

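The FPKM per normalised fragment was constant for Nodal, Cer1 and Gdf3 in every library in which they had fragments, and it was not for Foxh1. Per 100 normalised fragments, Foxh1 had 9.55 to 10.4 FPKM in the 4 libraries of the Prdm16 set and 6.31 to 7.36 in the 4 libraries of the PR domain set. Foxh1 in the PR domain control stood at 20.3% of the Prdm16 control by normalised fragments, and at 3.58 ± 0.60 against 26.3 ± 0.24 in FPKM (SD, n = 2). For the Lefty locus the value ran from 6.34 to 11.8 and differed within groups, at 10.9 and 6.57 in the Prdm16 knockout.

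Of 6 markers of the node and left-right organiser 5 were tested. In the Prdm16 knockout 1 fell, Shh, and 0 rose, where 21.1% of all tested loci were called lower and 18.0% higher. Foxj1 (0.29 ± 0.36), Nog (-0.31 ± 0.33), Chrd (-0.24 ± 0.33) and Dand5 (-0.07 ± 0.33) were not called there. Nog alone fell in the PR domain knockout, at -1.21 ± 0.33. Shh, which the node and floor plate transcribe, was at 66.8 and 56.4 normalised fragments in the Prdm16 control and at 16.1 and 18.7 in its knockout (-1.76 ± 0.23, limma adjusted p = 3.43e-07). It had 50.7 and 49.5 in the PR domain control and 68.2 and 56.2 in the PR domain knockout, which did not pass (0.30 ± 0.23, limma adjusted p = 0.425). Shh was not called between the wild-type sets (-0.29 ± 0.23, limma adjusted p = 0.374). Tfap2c, a transcription factor gene of germ cells and trophoblast, had 22 and 20 fragments in the Prdm16 control and 1 and 3 fragments in its knockout (-2.82 ± 0.51, limma adjusted p = 4.40e-05). Over both libraries it had 15 fragments in the PR domain control and 22 in the PR domain knockout, which did not pass (0.32 ± 0.51, limma adjusted p = 0.738).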
